A study of Mus musculus with 32 samples.

Results

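The genes described here, Bcl2, Bcl2l1, Mcl1, Bax, Bak1, Bcl2l11, Bbc3, Pmaip1, Bid and Bmf, are members of the BCL2 family, which sets the mitochondrial threshold for apoptosis. They are 10 of the 23743 genes and transcripts tested in this series, 16454 of which had a gene symbol. A probe was taken as a member's by the RefSeq transcript it is listed for, which gave 12 probes, and where a gene had 2 probes (Bcl2l1 and Mcl1) the brighter one over all arrays stood for it. All 10 genes passed the filter on dim probes, and all 12 probes were well above background on all 32 arrays, so that no member was lost or known only through the group in which it was high.

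The series asks how the kidney responds to cisplatin, a platinum drug that binds DNA and injures the tubule cells that take it up, in mice with and without the microRNA miR-155. Total RNA of whole ground kidney from 32 male mice aged 12 to 16 weeks was hybridised to 1-colour Agilent whole-genome mouse arrays, 1 animal per array. Wild type mice were C57BL/6, and miR-155-/- mice were of the strain B6.Cg-Mir155tm1.1Rsky/J. The 2 strains came from different suppliers, so that genotype and origin of the colony cannot be told apart. Within each genotype 4 mice received saline (the 0 h group), and 4 each were killed 24, 48 and 72 h after 1 injection of 20 mg/kg cisplatin. The saline mice stand for all times, since no saline group was kept to 24, 48 or 72 h. Levels below are log2 of the deposited processed signal minus the 75th percentile of the array, and each is compared only with the same probe's level on other arrays. A ± after a level is the SD of 4 arrays, and a ± after a difference the standard error limma gives it.

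Proteins of the BCL2 family meet at the outer membrane of the mitochondrion. BAX and BAK (genes Bax and Bak1) are the effectors, which oligomerise into pores that release cytochrome c and so start the caspase cascade. BCL2, BCL-XL (gene Bcl2l1) and MCL1 are pro-survival and hold the effectors in check. The BH3-only proteins sense stress and either block the pro-survival proteins or activate the effectors directly: BIM (gene Bcl2l11), PUMA (Bbc3), NOXA (Pmaip1, which binds mainly MCL1), BID (which links death receptors to the mitochondrion once caspases cut it) and BMF (which is linked to loss of attachment and to changes of the actin skeleton). Bax, Bbc3 and Pmaip1 are textbook targets of the DNA damage factor p53, and p53 and BAX are known to take part in cisplatin injury of tubule cells. Much of the family is also set at the protein level, by turnover of MCL1 and by moves of BAX, BIM and BID within the cell, which RNA arrays do not measure.

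The microRNA that the mutant strain lacks is shown first, with the seed (bases 2 to 8) in capitals, because its loss defines the mutant strain. Its sequence is RefSeq's, and the gene lies on the forward strand of GRCm38.p6, the mature strand at chr16:84714143-84714165. The array values of miR-155 itself were not analysed here, so that the genotypes rest on the labels.
mmu-miR-155-5p: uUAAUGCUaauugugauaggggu

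The 3 promoter windows that follow run from 250 bases before to 50 bases after a RefSeq start site of GRCm38.p6 and are read on the gene's strand. They are shown because several members and p53 target genes rose together in these kidneys. Capitals mark the p53 half-site, the 10-base consensus that is the repeated unit of a p53 response element and reads alike on both strands. Of the 16 windows listed for 9 of the members, 2 held it, 1 window of Bax and 1 of the 3 windows of Bmf. Of all 32851 mouse windows, 8.36% held at least 1 half-site and 0.0731% held a pair of them at most 13 bases apart. None of the 16 windows held such a pair, and a window of Pmaip1 is not reported here. The Bax window is chr7:45466849-45467148 on the reverse strand, with the half-site starting 201 bases before the start site. The Bmf window is chr2:118544538-118544837 on the reverse strand, with the half-site starting 213 bases before it. For contrast the first of the 3 windows of Bbc3 is given, chr7:16309333-16309632 on the forward strand, which holds no exact match to the consensus. Bbc3 is the member with the largest change below, Bax rose as well, and Bmf did not rise. A match in such a window is a description and no site of binding. Only exact matches were marked, so that a window without capitals may still hold a p53 site that departs from the consensus. Absence of a match also says nothing of sites elsewhere in the gene.
Bax: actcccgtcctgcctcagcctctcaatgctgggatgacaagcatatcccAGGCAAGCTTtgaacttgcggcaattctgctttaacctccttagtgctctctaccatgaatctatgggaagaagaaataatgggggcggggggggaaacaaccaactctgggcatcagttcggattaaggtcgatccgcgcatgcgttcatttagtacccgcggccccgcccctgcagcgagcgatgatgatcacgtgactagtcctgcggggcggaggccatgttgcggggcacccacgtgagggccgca
Bmf: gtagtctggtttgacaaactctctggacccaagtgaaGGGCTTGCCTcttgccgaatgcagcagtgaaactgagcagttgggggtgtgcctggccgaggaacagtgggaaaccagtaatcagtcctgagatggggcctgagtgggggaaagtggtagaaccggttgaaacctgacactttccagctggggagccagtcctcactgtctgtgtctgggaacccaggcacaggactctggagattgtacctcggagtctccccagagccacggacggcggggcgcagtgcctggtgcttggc
Bbc3: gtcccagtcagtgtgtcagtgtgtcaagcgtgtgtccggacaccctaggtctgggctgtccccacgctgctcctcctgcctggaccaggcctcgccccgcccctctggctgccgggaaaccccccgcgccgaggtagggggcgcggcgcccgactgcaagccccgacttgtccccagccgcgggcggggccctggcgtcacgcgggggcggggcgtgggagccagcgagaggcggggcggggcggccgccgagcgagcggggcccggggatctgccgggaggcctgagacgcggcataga

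The share of spots well above background was 68.8% to 82.2% by array, no spot was saturated, and no value of a member was missing. The tissue label was borne out by the markers of the proximal tubule, whose summed level (log2, relative to the 75th percentile) was 7.86 to 8.51 over both saline groups. The arrays that stood apart from their groups on the first 2 principal components of all genes were miR-155-/- replicate 3 at 24 h (87.8 and 59.6, against 18.4 to 70.6 and 28.0 to 40.8 on the other 3 arrays) and miR-155-/- replicate 3 at 48 h (121.2 and 61.4, against 18.2 to 30.3 and -21.6 to -14.4). Both also had the highest summed red blood cell markers of their groups (3.16 against -0.25 to 1.19, and 5.11 against -3.07 to 0.33). The 48 h array had the lowest sum of its group for the proximal tubule (6.75 against 7.38 to 7.47) and for the distal nephron (4.66 against 6.27 to 6.92). Differences of the members from saline and from pair to pair are given with and without them, a choice made after seeing the data, while orders of group means and nearest profiles include them. The 32 arrays lay on 8 slides and were scanned on 2 days. Within single scan days 102 of 102 differences of called members had the sign of the whole set, and within single slides 69 of 69. Apart from Bcl2 in wild type at 72 h, the compared arrays did not overlap for called members, which fixed these signs in advance. The counts therefore cannot show whether slide or scan day mattered. The number of arrays, 4 a group, limits the precision.

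Of the 10 members, 7 rose after cisplatin at all 3 times in both genotypes: Bcl2l1, Mcl1, Bax, Bak1, Bcl2l11, Bbc3 and Pmaip1 (limma over all 32 arrays, Benjamini-Hochberg adjustment over all genes tested, called at an adjusted p under 0.05). Many genes moved after cisplatin. In wild type kidney 21% of all genes tested were called higher at 24 h, 12.2% at 48 h and 12.5% at 72 h, and in miR-155-/- kidney 26.6%, 22.7% and 17.7%. The share called in either direction was 38.7%, 23.8% and 25.3% in wild type and 49.1%, 43.8% and 35.2% in miR-155-/- kidney. Among the members 7 of 10 were called higher each time, and the lower calls were 0 at 24 h, 1 at 48 h (Bcl2) and 1 at 72 h (Bcl2) in wild type, and 1 (Bmf), 0 and 1 (Bid) in miR-155-/- kidney. All genes called lower made up 17.6%, 11.6% and 12.8% in wild type and 22.5%, 21.1% and 17.5% in miR-155-/- kidney. The median log2 difference of all 10 members was 0.96, 0.75 and 0.80 in wild type and 1.17, 1.02 and 1.18 in miR-155-/- kidney, against -0.05 to 0.07 for all genes tested. Treated and saline arrays did not overlap for 7, 9 and 8 of the members in wild type, where this held for 46.3%, 34.8% and 40.1% of all genes, and for 8, 7 and 8 in miR-155-/- kidney, against 40%, 37.8% and 39.8%. The 3 comparisons of a genotype share its saline arrays. As these are whole kidneys, fewer cells of a type and less RNA per cell cannot be told apart, and this holds for all results below.

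**Figure D1:**
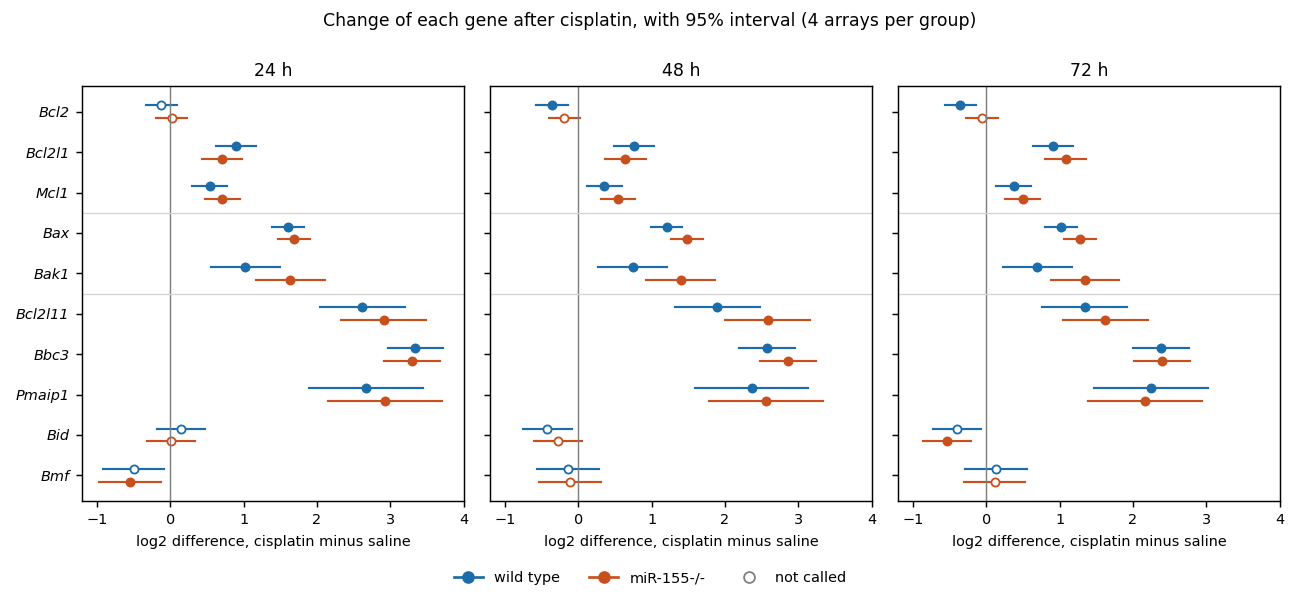
Log2 difference of cisplatin from saline (x axis) for each of the 10 genes (y axis; pro-survival genes above, then effectors, then BH3-only genes), with its 95% interval from the fit, at 24, 48 and 72 h; 4 arrays per group, filled points called at an adjusted p under 0.05, open points not called. Bbc3 lies farthest to the right at 24 h in wild type (3.34), while Bcl2, Bid and Bmf lie near or below 0.

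Of the 3 pro-survival genes, Bcl2l1 and Mcl1 rose and Bcl2 did not. Bcl2l1, which encodes BCL-XL, stood at 3.56, 3.48, 3.64 and 3.64 on the 4 saline arrays of wild type mice. It reached 4.56, 4.54, 4.51 and 4.27 at 24 h, 4.42, 4.48, 4.29 and 4.15 at 48 h and 4.29, 4.38, 4.62 and 4.64 at 72 h. All 12 treated wild type arrays lay above the 4 saline ones, and the 3 treated groups overlapped each other. The rise was 1.86-fold at 24 h (log2 0.89 ± 0.13, adjusted p = 5.83e-06), 1.69-fold at 48 h (0.76 ± 0.13, adjusted p = 0.000101) and 1.88-fold at 72 h (0.91 ± 0.13, adjusted p = 7.49e-06). In miR-155-/- kidney Bcl2l1 stood at 3.61, 3.77, 3.66 and 3.62 under saline, 4.60, 4.38, 3.78 and 4.70 at 24 h, 4.37, 4.28, 4.18 and 4.39 at 48 h and 4.82, 4.76, 4.92 and 4.48 at 72 h. The low value at 24 h, 3.78, is that of the array that stands apart, and it still lay above the saline arrays. Here the rise was 1.63-fold, 1.56-fold and 2.11-fold (0.70 ± 0.13, 0.64 ± 0.13 and 1.08 ± 0.13, adjusted p = 0.000102, 0.00035 and 3.19e-07). The values at 24 and 48 h were 0.90 and 0.68 without both arrays that stand apart. Its second, dimmer probe gave similar differences, between 0.63 and 1.17 over the 6 comparisons. With another background correction (normexp) the rise at 48 h in miR-155-/- kidney was no longer called (0.44, adjusted p = 0.0893; 8.14e-06 to 0.0893 over 43 alternative settings). By the brighter probe its highest group mean lay at 72 h in both genotypes, which was otherwise so for Bmf alone, whose changes at that time were not called. In wild type the Bcl2l1 mean at 72 h (4.48) was hardly above that at 24 h (4.47). By the dimmer probe the wild type rise was larger at 24 h (0.99) than at 72 h (0.90).

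Mcl1, which encodes a short-lived pro-survival protein, rose by its brighter probe, in wild type by less than the other called risers. On the wild type arrays its level was 2.52, 2.72, 2.75 and 2.73 under saline, 3.34, 3.29, 3.07 and 3.16 at 24 h, 3.04, 3.05, 3.02 and 3.03 at 48 h and 3.04, 3.12, 2.98 and 3.08 at 72 h. On the miR-155-/- arrays it was 2.67, 2.78, 2.57 and 2.66 under saline, 3.14, 3.17, 3.86 and 3.35 at 24 h, 3.1, 3.04, 3.57 and 3.14 at 48 h and 3.20, 3.16, 3.20 and 3.12 at 72 h. No treated array overlapped the saline arrays of its genotype, and the 2 highest values, 3.86 and 3.57, were those of the arrays that stand apart. The rise was 1.45-fold, 1.28-fold and 1.3-fold in wild type (0.54 ± 0.12, 0.36 ± 0.12 and 0.38 ± 0.12, adjusted p = 0.000581, 0.0252 and 0.0173). In miR-155-/- kidney it was 1.63-fold, 1.45-fold and 1.41-fold (0.71 ± 0.12, 0.54 ± 0.12 and 0.50 ± 0.12, adjusted p = 1.67e-05, 0.000503 and 0.00129), and 0.55 and 0.42 at 24 and 48 h without both arrays that stand apart. The wild type calls at 48 and 72 h depended on single arrays. Leaving out saline replicate 1 gave 0.30 (adjusted p = 0.0909) and 0.32 (adjusted p = 0.068), and leaving out replicate 1 or 2 at 48 h gave an adjusted p of 0.0516 or 0.0572 there. Over 43 alternative settings the adjusted p ranged from 7.72e-05 to 0.0909 at 48 h and from 5.1e-05 to 0.068 at 72 h.

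The 2 probes of Mcl1, both listed for the transcript NM_008562, disagreed in size. By the dimmer probe, A_52_P93933, wild type arrays stood at 0.09, 0.35, 0.18 and 0.01 under saline, 2.0, 2.20, 1.70 and 2.07 at 24 h, 1.47, 1.63, 1.33 and 1.35 at 48 h and 1.28, 1.36, 1.34 and 1.54 at 72 h. The same probe gave 0.19, -0.02, 0.05 and 0.20 in saline miR-155-/- kidney, 1.83, 1.79, 2.57 and 2.19 at 24 h, 1.43, 1.55, 2.58 and 1.46 at 48 h and 1.50, 1.39, 1.56 and 1.32 at 72 h. Every treated array was thus well clear of the saline arrays. Its differences from saline were 1.83 ± 0.18, 1.29 ± 0.18 and 1.23 ± 0.18 in wild type and 1.99 ± 0.18, 1.65 ± 0.18 and 1.34 ± 0.18 in miR-155-/- kidney, all called by limma (largest adjusted p = 8.22e-06). Within arrays the dimmer probe changed by 0.84 to 1.30 more than the brighter one, and this difference was larger on all 4 treated arrays than on all 4 saline arrays in each of the 6 comparisons. The probes were set against each other after their values had been seen, and the 3 comparisons of a genotype share its saline arrays. The dimmer probe gave 1.83 at 24 h and 1.38 at 48 h in miR-155-/- kidney without both arrays that stand apart. Which of the 2 probes follows the whole transcript was not tested. The direction of the Mcl1 rise is the same by both, and its size differs with the probe.

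**Figure D2:**
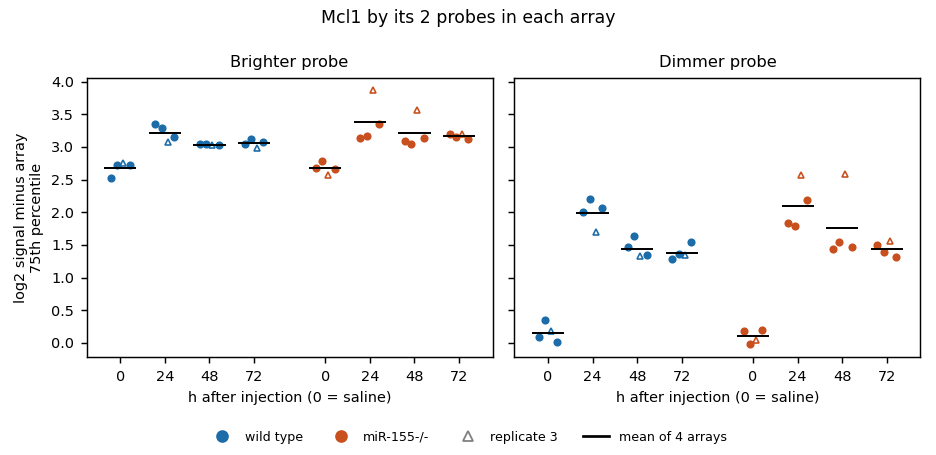
Level of Mcl1 by each of its 2 probes (y axis, log2 signal minus the array's 75th percentile) in the 8 groups (x axis, h after injection, 0 = saline); points are arrays, triangles replicate 3 of a group, lines means of 4 arrays. The step from saline to 24 h in wild type is 0.54 for the brighter and 1.83 for the dimmer probe; the levels of the probes themselves are not comparable.

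Bcl2, the founding pro-survival gene, was the member whose 8 group means had the smallest range (0.36). In wild type kidney it stood at -1.06, -1.42, -1.01 and -1.10 under saline, -1.11, -1.27, -1.30 and -1.38 at 24 h, -1.44, -1.58, -1.45 and -1.56 at 48 h and -1.39, -1.41, -1.59 and -1.62 at 72 h. Saline replicate 2, at -1.42, was low and overlapped the 24 and 72 h groups. Bcl2 fell at 48 h (-0.36 ± 0.10, adjusted p = 0.0117) and at 72 h (-0.36 ± 0.10, adjusted p = 0.0119), and its difference at 24 h was -0.12 ± 0.10 (adjusted p = 0.377). In miR-155-/- kidney no time was called, with 0.02 ± 0.10, -0.19 ± 0.10 and -0.06 ± 0.10 (adjusted p = 0.914, 0.138 and 0.704), and the arrays there ranged from -1.47 to -1.10 under saline and from -1.60 to -1.42 at 48 h. The values at 24 and 48 h there were 0.03 and -0.19 without both arrays that stand apart. The 2 wild type calls were lost under normexp (0.133 and 0.148), with the array median in place of the 75th percentile (0.087 and 0.102) and without saline replicate 3 (0.0505 and 0.0514, all adjusted p).

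Both effectors rose at every time in both genotypes. Bax stood at 1.62, 1.76, 1.78 and 1.67 in saline wild type kidney, 3.28, 3.38, 3.31 and 3.29 at 24 h, 3.04, 3.03, 2.75 and 2.82 at 48 h and 2.72, 2.66, 2.85 and 2.67 at 72 h. All treated arrays lay above the saline arrays, and those of 24 h above those of the later times. The rise was 3.05-fold, 2.3-fold and 2.02-fold (1.61 ± 0.11, 1.20 ± 0.11 and 1.02 ± 0.11, adjusted p = 2.89e-12, 1.56e-09 and 3.01e-08). The miR-155-/- arrays stood at 1.63, 1.48, 1.31 and 1.52 under saline, 3.39, 3.25, 2.79 and 3.23 at 24 h, 3.03, 2.98, 2.99 and 2.86 at 48 h and 3.03, 2.76, 2.69 and 2.56 at 72 h, with the array that stands apart lowest at 24 h. The rise there was 3.21-fold, 2.79-fold and 2.42-fold (1.68 ± 0.11, 1.48 ± 0.11 and 1.28 ± 0.11, adjusted p = 1.38e-12, 1.96e-11 and 2.79e-10). It was 1.81 at 24 h and 1.47 at 48 h on the log2 scale without both arrays that stand apart.

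Bak1, the second effector, stood at 0.30, 0.38, 0.27 and 0.40 in saline wild type kidney, 1.29, 1.50, 1.05 and 1.58 at 24 h, 1.30, 1.39, 0.77 and 0.85 at 48 h and 0.83, 1.06, 1.11 and 1.13 at 72 h. Replicates 3 and 4 at 48 h were low within their group but still above saline. It rose 2.03-fold, 1.67-fold and 1.62-fold (1.02 ± 0.23, 0.74 ± 0.23 and 0.70 ± 0.23, adjusted p = 0.000822, 0.0181 and 0.0248). The miR-155-/- arrays read 0.09, 0.14, -0.07 and 0.15 under saline, 1.32, 1.25, 2.25 and 2.02 at 24 h, 1.20, 1.06, 2.46 and 1.17 at 48 h and 1.61, 1.44, 1.53 and 1.11 at 72 h. The highest values at 24 and 48 h, 2.25 and 2.46, belonged to the arrays that stand apart. The rise was 3.1-fold, 2.63-fold and 2.54-fold (1.63 ± 0.23, 1.40 ± 0.23 and 1.35 ± 0.23, adjusted p = 1.97e-06, 2.12e-05 and 3.41e-05), and 1.45 and 1.07 at 24 and 48 h without those arrays. In wild type the calls at 48 and 72 h depended on single arrays. At 48 h the adjusted p was 0.0612 without replicate 1 and 0.075 without replicate 2 (0.000323 to 0.075 over 43 alternative settings). At 72 h it was 0.053 and 0.0577 without saline replicate 1 or 3, and 0.0504, 0.0606 and 0.0617 without replicate 2, 3 or 4 at 72 h (0.00011 to 0.0617 over 43 alternative settings).

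Among the 5 BH3-only genes, Bbc3, Pmaip1 and Bcl2l11 rose at every time in both genotypes, and Bid and Bmf did not rise at any. Bbc3, which encodes PUMA, stood at -0.47, -0.65, -0.41 and -0.62 in saline wild type kidney. It reached 2.72, 2.99, 2.52 and 2.98 at 24 h, 2.08, 2.14, 1.80 and 2.10 at 48 h and 1.83, 1.84, 2.01 and 1.68 at 72 h. This was the largest change of any member at 24 h, 10.1-fold (3.34 ± 0.19, adjusted p = 1.52e-13), followed by 5.93-fold (2.57 ± 0.19, adjusted p = 3.23e-11) and 5.2-fold (2.38 ± 0.19, adjusted p = 1.55e-10). Bbc3 stood at -0.71, -0.93, -0.80 and -0.94 in saline miR-155-/- kidney, 2.54, 2.77, 1.58 and 2.90 at 24 h, 2.04, 2.29, 1.64 and 2.08 at 48 h and 1.76, 1.37, 1.40 and 1.66 at 72 h. There the arrays that stand apart had the lowest treated values of their groups, 1.58 and 1.64, unlike their values of Bak1, Pmaip1 and Bcl2l11. The rise was 9.8-fold, 7.26-fold and 5.25-fold (3.29 ± 0.19, 2.86 ± 0.19 and 2.39 ± 0.19, adjusted p = 2.03e-13, 3.07e-12 and 8.61e-11), and 3.58 and 2.98 without those arrays.

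Pmaip1, which encodes NOXA, stood at -0.66, -0.16, -0.14 and -0.36 under saline in wild type, 2.07, 2.85, 1.76 and 2.67 at 24 h, 2.58, 2.55, 1.28 and 1.71 at 48 h and 1.92, 1.81, 1.98 and 1.93 at 72 h. The 24 and 48 h arrays spread widely, and those of 72 h lay close together. It rose 6.35-fold, 5.14-fold and 4.73-fold (2.67 ± 0.38, 2.36 ± 0.38 and 2.24 ± 0.38, adjusted p = 2.67e-06, 2.84e-05 and 4.81e-05). The miR-155-/- values were -0.21, -0.52, 0.06 and -0.04 under saline, 1.87, 2.14, 3.86 and 3.14 at 24 h, 2.06, 1.77, 3.68 and 2.01 at 48 h and 2.25, 2.05, 2.30 and 1.37 at 72 h. The arrays that stand apart were the highest of their groups, at 3.86 and 3.68. The rise was 7.61-fold, 5.89-fold and 4.49-fold (2.93 ± 0.38, 2.56 ± 0.38 and 2.17 ± 0.38, adjusted p = 6.1e-07, 5.18e-06 and 4.76e-05), and 2.56 and 2.12 at 24 and 48 h without them.

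Bcl2l11, which encodes BIM, had a dim probe, at -5.91, -6.22, -6.45 and -5.87 in saline wild type kidney. It stood at -3.77, -2.94, -4.09 and -3.19 at 24 h, -3.92, -3.76, -4.63 and -4.57 at 48 h and -4.92, -4.89, -4.54 and -4.73 at 72 h. The 72 h arrays lay between the saline arrays and the 24 h arrays and overlapped neither. The rise was 6.12-fold, 3.72-fold and 2.53-fold (2.61 ± 0.28, 1.89 ± 0.28 and 1.34 ± 0.28, adjusted p = 3.51e-08, 1.1e-05 and 0.000686). Bcl2l11 read -6.15, -6.19, -6.16 and -6.19 in saline miR-155-/- kidney, -3.95, -3.47, -2.78 and -2.84 at 24 h, -3.76, -4.07, -2.63 and -3.91 at 48 h and -4.40, -4.52, -4.49 and -4.79 at 72 h. The arrays that stand apart were again the highest of their groups, at -2.78 and -2.63. It rose 7.52-fold, 5.98-fold and 3.07-fold (2.91 ± 0.28, 2.58 ± 0.28 and 1.62 ± 0.28, adjusted p = 5.73e-09, 5.49e-08 and 4.83e-05), and 2.75 and 2.26 without them. The normexp setting adds an offset of 50 besides its background correction, and the part of each was not tested. Of the risers Bcl2l11 depended most on this setting. Under normexp it was smaller and no longer called at 48 h in wild type (0.78, adjusted p = 0.357), at 72 h in wild type (0.42, 0.807) and at 72 h in miR-155-/- kidney (0.90, 0.195), and under no other setting were these calls lost. The called rises were smaller too under normexp, at 1.63 in wild type and 1.44 in miR-155-/- kidney at 24 h and 1.50 in miR-155-/- kidney at 48 h (adjusted p = 0.00807, 0.0151 and 0.0159).

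Bid and Bmf were each called lower in 1 of the 6 comparisons and higher in none. Bid, whose protein is cut by caspase-8, stood at 0.96, 1.16, 1.20 and 1.20 under saline in wild type, 1.14, 1.38, 1.16 and 1.42 at 24 h, 0.53, 0.63, 0.77 and 0.90 at 48 h and 0.77, 0.71, 0.63 and 0.81 at 72 h. The arrays of 48 and 72 h all lay below those of saline, yet the differences of -0.42 ± 0.16 and -0.40 ± 0.16 missed the threshold (adjusted p = 0.0564 and 0.0684), and that of 24 h was 0.14 ± 0.16 (adjusted p = 0.507). Without both arrays that stand apart, which are of the other genotype and enter through the shared spread, both were called (adjusted p = 0.00199 and 0.00298). The miR-155-/- arrays of Bid read 0.98, 1.13, 0.80 and 1.33 under saline, 1.18, 1.31, 0.40 and 1.35 at 24 h, 0.92, 0.82, 0.35 and 1.02 at 48 h and 0.43, 0.65, 0.37 and 0.66 at 72 h. The arrays that stand apart were the lowest of their groups, at 0.40 and 0.35. Bid fell at 72 h, to 1.45-fold below saline (-0.53 ± 0.16, adjusted p = 0.0103), and its differences at 24 and 48 h were 0.00 ± 0.16 and -0.28 ± 0.16 (adjusted p = 0.987 and 0.158), or 0.22 and -0.14 without both arrays that stand apart (adjusted p = 0.0935 and 0.346).

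Bmf ranged from -0.90 to -0.42 in saline wild type kidney, from -1.42 to -0.90 at 24 h, from -1.41 to -0.40 at 48 h and from -0.82 to -0.30 at 72 h. The miR-155-/- arrays ranged from -0.96 to -0.32 under saline, from -1.31 to -0.97 at 24 h, from -1.27 to -0.54 at 48 h and from -0.87 to 0.10 at 72 h. It fell at 24 h in miR-155-/- kidney (-0.55 ± 0.21, adjusted p = 0.0285), and the wild type value at that time was -0.50 ± 0.21 (adjusted p = 0.0538). The wild type fall of Bmf was called by limma in 8 of 43 alternative settings. Among these were the compared groups alone (adjusted p = 0.0147) and the fit without both arrays that stand apart (adjusted p = 0.0476). At 48 and 72 h its differences lay between -0.15 and 0.13 in both genotypes and were not called, and that of 48 h in miR-155-/- kidney was -0.14 without both arrays that stand apart. The single call was lost under normexp (-0.51, adjusted p = 0.077), with the array median in place of the 75th percentile (-0.45, adjusted p = 0.103), without both arrays that stand apart (-0.52, adjusted p = 0.057), without saline replicate 3 (0.106), and without replicate 1 or 3 at 24 h (0.0611 and 0.0629).

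**Figure D3:**
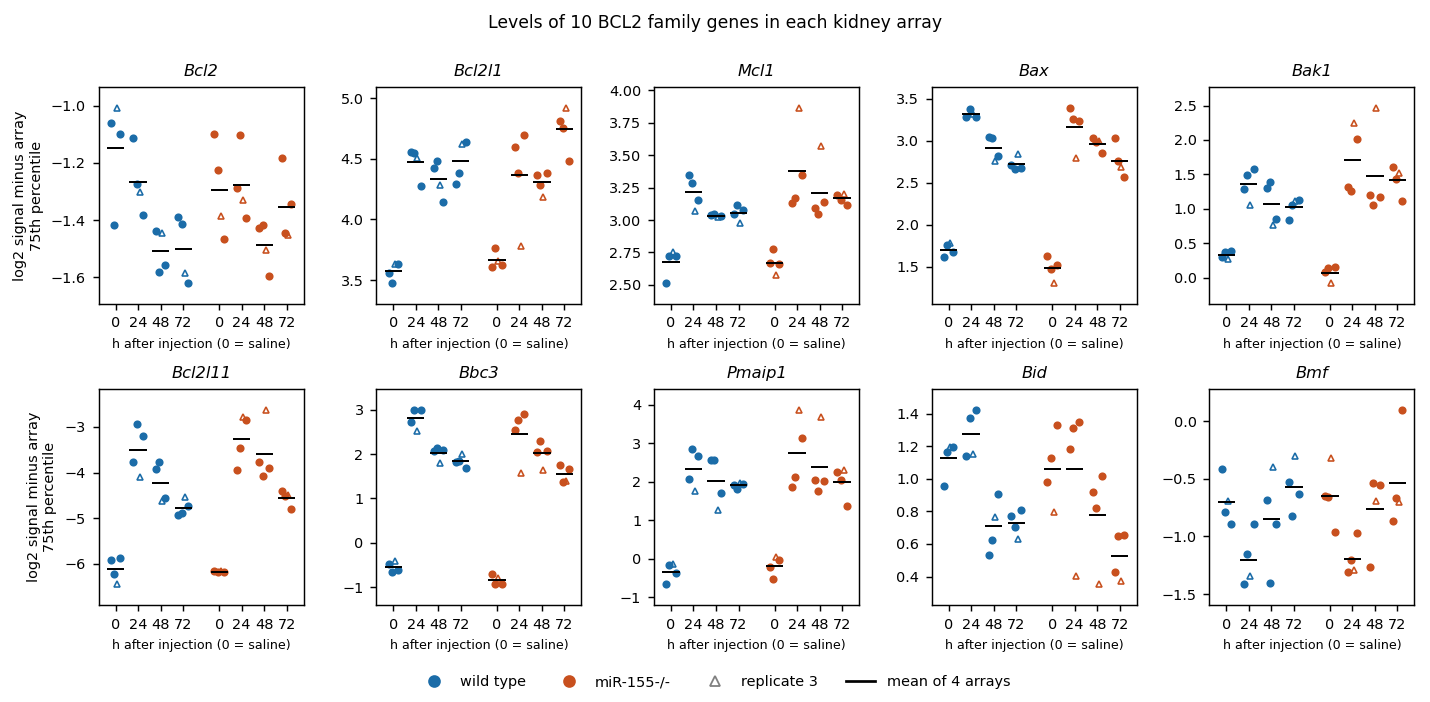
Level of each of the 10 genes (y axis, log2 signal minus the array's 75th percentile, own scale per gene) in wild type (left) and miR-155-/- kidney (right) at 0, 24, 48 and 72 h; points are arrays, triangles replicate 3 of a group, lines means of 4 arrays. The triangles at 24 and 48 h in miR-155-/- kidney are the arrays that stand apart, highest of their groups for Mcl1, Bak1, Bcl2l11 and Pmaip1 and lowest for Bcl2l1, Bbc3 and Bid.

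Ordered by group mean, the 7 members that rose had the same break in their order: all 6 treated groups stood above both saline groups, and the lowest treated group did not overlap the higher saline group in any array. Within the treated groups nearly all neighbours in the order overlapped, the exception being Mcl1, whose mean of 3.17 in miR-155-/- kidney at 72 h and of 3.05 in wild type at 72 h belonged to groups that did not. They only just missed overlap, with a lowest miR-155-/- array of 3.119 and a highest wild type array of 3.117. Between these groups 12.8% of all genes did not overlap. The highest mean was at 24 h for 6 of the 7, in wild type for Bax (3.32) and Bbc3 (2.80) and in miR-155-/- kidney for Mcl1 (3.38), Bak1 (1.71), Bcl2l11 (-3.26) and Pmaip1 (2.75), and at 72 h for Bcl2l1 (4.74, miR-155-/-). Between the saline groups, Bak1 (0.34 and 0.08) and Bbc3 (-0.54 and -0.85) did not overlap, with wild type higher, where 4.2% of all genes did not overlap in either direction. For Bcl2, Bid and Bmf every pair of neighbours in the order overlapped.

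Pro-survival and pro-death members were compared within each array as their mean change from the saline mean of the same genotype. Scores over chosen genes have no test here, and both genotypes' values are given as a description. The 3 pro-survival genes together had changed by 0.44 ± 0.11 (SD, n = 4), 0.25 ± 0.06 and 0.31 ± 0.02 at 24, 48 and 72 h in wild type and by 0.48 ± 0.05, 0.33 ± 0.05 and 0.51 ± 0.08 in miR-155-/- kidney. The 7 pro-death genes had changed by 1.56 ± 0.26, 1.17 ± 0.18 and 1.06 ± 0.09 in wild type and by 1.70 ± 0.23, 1.50 ± 0.25 and 1.20 ± 0.07 in miR-155-/- kidney. Pro-death change exceeded pro-survival change on every treated array. The excess was 0.84, 1.30, 0.88 and 1.46 on the wild type arrays of 24 h, 1.04, 1.02, 0.73 and 0.89 at 48 h and 0.74, 0.66, 0.88 and 0.72 at 72 h. On the miR-155-/- arrays it was 1.0, 1.14, 1.30 and 1.47 at 24 h, 1.02, 1.07, 1.46 and 1.12 at 48 h and 0.69, 0.71, 0.65 and 0.72 at 72 h. The miR-155-/- arrays of 72 h all lay below those of 24 and 48 h, and in wild type the 72 h arrays overlapped both earlier groups. The mean excess in miR-155-/- kidney was 1.20 at 24 h and 1.07 at 48 h without both arrays that stand apart. The excess depended on the Mcl1 probe. By the dimmer one, whose rise is larger, it was 0.69 ± 0.26 (SD, n = 4), 0.61 ± 0.12 and 0.47 ± 0.09 in wild type and 0.80 ± 0.18, 0.80 ± 0.10 and 0.41 ± 0.06 in miR-155-/- kidney, and still above 0 on every treated array.

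Single pairs did not all follow this average. Bax minus Bcl2l1, the change of an effector against that of BCL-XL, was 0.59, 0.70, 0.68 and 0.88 at 24 h in wild type, 0.49, 0.42, 0.34 and 0.54 at 48 h and 0.29, 0.15, 0.09 and -0.10 at 72 h. The miR-155-/- arrays gave 0.96, 1.05, 1.19 and 0.71 at 24 h, 0.84, 0.88, 0.99 and 0.65 at 48 h and 0.39, 0.18, -0.05 and 0.26 at 72 h. At 72 h the arrays thus lay on both sides of 0 in both genotypes. Bax minus Bcl2 stayed at 1.37 ± 0.17 (SD, n = 4) at 72 h in wild type and 1.34 ± 0.14 in miR-155-/- kidney, from 1.73 ± 0.13 and 1.67 ± 0.26 at 24 h. By the brighter Mcl1 probe, Bax minus Mcl1 was 1.07 ± 0.13, 0.85 ± 0.14 and 0.64 ± 0.14 in wild type, and 0.97 ± 0.59, 0.94 ± 0.24 and 0.78 ± 0.17 in miR-155-/- kidney. By the dimmer probe the same difference had a mean below 0 in all 6 groups, at -0.23 ± 0.20, -0.09 ± 0.08 and -0.21 ± 0.16 in wild type and -0.31 ± 0.61, -0.17 ± 0.54 and -0.06 ± 0.18 in miR-155-/- kidney. The sign of the mean thus turns with the probe, and by the dimmer one single arrays lay on both sides of 0 in every treated group except wild type at 72 h. The miR-155-/- values at 24 and 48 h were 1.26 and 1.05 by the brighter probe and -0.03 and 0.10 by the dimmer one without both arrays that stand apart. Bcl2l11 minus Bcl2l1 went from 1.72 ± 0.58 to 0.44 ± 0.09 in wild type and from 2.21 ± 0.83 to 0.54 ± 0.08 in miR-155-/- kidney between 24 and 72 h. The miR-155-/- value at 24 h was 1.86 without the array that stands apart, and those of Bax minus Bcl2l1 and Bax minus Bcl2 were 0.91 and 1.77. Bbc3 minus Mcl1 by the brighter probe was 2.81 ± 0.21 at 24 h and 2.0 ± 0.18 at 72 h in wild type and 2.58 ± 0.90 and 1.90 ± 0.20 in miR-155-/- kidney. The miR-155-/- mean at 24 h was 3.04 without the array that stands apart, which read 1.23 where the other 3 read 2.93 to 3.11. By the dimmer probe it was 1.51 ± 0.08 at 24 h and 1.15 ± 0.23 at 72 h in wild type and 1.30 ± 0.90 and 1.05 ± 0.24 in miR-155-/- kidney, where the 24 h value was 1.75 without that array.

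**Figure D4:**
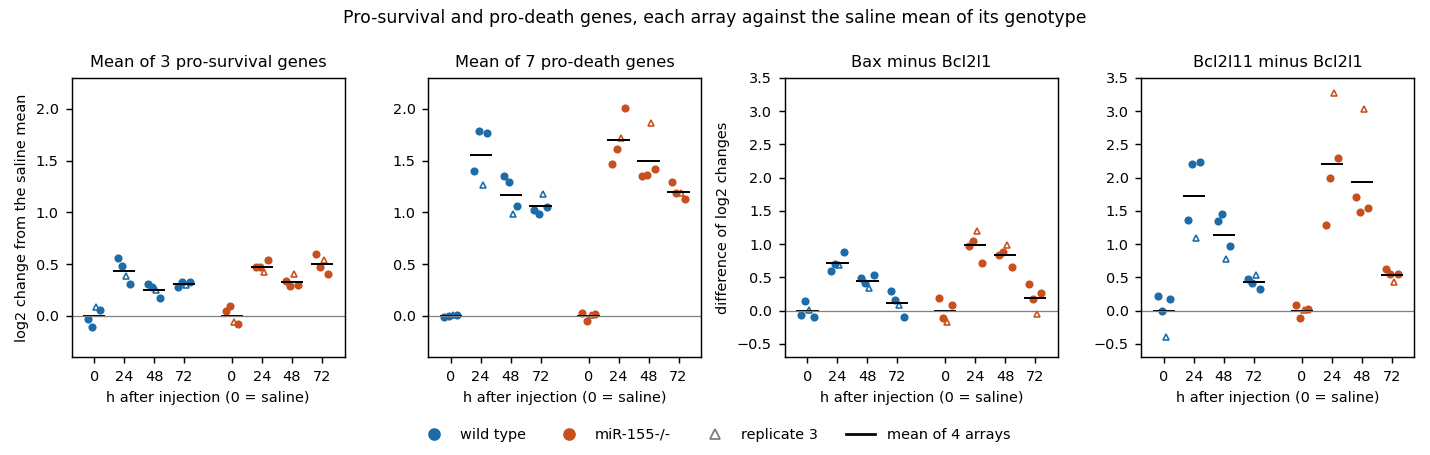
Change from the saline mean of the same genotype (y axes, log2) of the mean of the 3 pro-survival genes, the mean of the 7 pro-death genes, and the difference of the changes of Bax and Bcl2l1 and of Bcl2l11 and Bcl2l1, in each array by group (x axes, h after injection, 0 = saline); points are arrays, triangles replicate 3 of a group, lines means of 4 arrays. The pro-death mean lies above the pro-survival mean on all treated arrays, while Bax minus Bcl2l1 returns to a mean of 0.11 in wild type at 72 h.

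Time courses within a genotype were tested between consecutive times. From 24 to 48 h in wild type, where 13.1% of all genes were called, 3 members fell and none rose (7.22% of all genes were called lower and 5.88% higher): Bbc3 by 0.77 (adjusted p = 0.00547), Bax by 0.40 (adjusted p = 0.0102) and Bid by 0.57 (adjusted p = 0.018), on the log2 scale. The arrays of the 2 times did not overlap for these genes nor for Bcl2 and Mcl1 (5 of the 10), and did not for 23.6% of all genes. The fall of Bax was not called under normexp (adjusted p = 0.158), nor was that of Bid (0.0684), which was also lost without replicate 2 or 4 at 24 h (0.0641 and 0.0651) and without replicate 1 at 48 h (0.062). Without both arrays that stand apart, Bcl2l11 (-0.72, adjusted p = 0.0226) and Mcl1 (-0.18, adjusted p = 0.0433) were called lower as well. From 48 to 72 h in wild type no member was called (limma, 0 of 10, and 0 at an unadjusted p under 0.05; 0.872% of all genes called), and none had arrays that did not overlap (9.24% of all genes). From 24 to 48 h in miR-155-/- kidney none was called either (2 at an unadjusted p under 0.05, Bbc3 and Bmf; 4.02% of all genes called). Without both arrays that stand apart, 3 were called lower there, the same genes as in wild type: Bbc3 (-0.60), Bax (-0.33) and Bid (-0.36). Far more of all genes were called there too in that setting, 4447 in place of 955. The shares of all genes in this paragraph include both arrays and are not those of that setting. Leaving out replicate 3 at 24 h alone gave the same 3 calls, and leaving out replicate 3 at 48 h alone gave 1, Bak1 (-0.57, adjusted p = 0.0279). From 48 to 72 h in miR-155-/- kidney (6.25% of all genes called, 3.16% higher and 3.08% lower) Bcl2l1 rose by 0.44 ± 0.13 (adjusted p = 0.0471) and Bcl2l11 fell by 0.96 (adjusted p = 0.0392). Both are close to the threshold. Over 43 alternative settings the rise of Bcl2l1 was called in 10 and the fall of Bcl2l11 in 33. The rise had an adjusted p of 0.125 without replicate 3 at 48 h and of 0.151 without replicate 3 at 72 h. The fall of Bcl2l11 was 0.64 and not called without both arrays that stand apart (adjusted p = 0.128; 0.0238 to 0.897 over 43 alternative settings), where Bcl2l1 was called (0.40, adjusted p = 0.0166; 0.00578 to 0.182 over 43 alternative settings) together with lower Bbc3 and Bid.

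Genotypes were compared at each time. No member differed between miR-155-/- and wild type kidney by limma at 0, 24, 48 or 72 h, where 0.114%, 0.08%, 0.101% and 0.72% of all genes were called. At an unadjusted p under 0.05 there was 1 member at 0 h (Bax, -0.22 ± 0.11, adjusted p = 1 by limma), 0 at 24 h, 1 at 48 h (Bcl2l11, 0.63 ± 0.28, adjusted p = 0.323 by limma) and 0 at 72 h. The difference in Bcl2l11 at 48 h was 0.31 without the arrays that stand apart. At 72 h the 95% interval was -0.13 to 0.35 for Mcl1, -0.18 to 0.25 for Bax and -0.07 to 0.36 for Bcl2. That of Pmaip1 was wider, -0.70 to 0.86 at the same time. No array stands apart at 72 h, but those of 24 and 48 h enter these widths through the shared spread. For Mcl1 the error of the wild type difference from saline at 72 h was 0.116 with them and 0.065 without. The SD of Pmaip1 in miR-155-/- kidney was 0.92 and 0.88 at 24 and 48 h and 0.43 at 72 h. The widths therefore do not show the spread of the 72 h animals alone. The arrays of the genotypes did not overlap for 2 members at 0 h (Bak1 and Bbc3), none at 24 and 48 h and 1 at 72 h (Mcl1), where this held for 4.2%, 3.62%, 4.44% and 12.8% of all genes. A value that misses the threshold does not show that the genotypes are alike.

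The interaction, by which the cisplatin response of miR-155-/- kidney exceeds that of wild type, was not called for any member either, at 24, 48 or 72 h (limma, 0 of 10 each time and 0 at an unadjusted p under 0.05; 0%, 0% and 0.211% of all genes called). Bak1 had the smallest unadjusted p of the members at all 3 times (0.0679, 0.0524 and 0.0551), with a larger rise in miR-155-/- kidney: 0.62 ± 0.32 (95% interval -0.05 to 1.28), 0.66 ± 0.32 (-0.01 to 1.32) and 0.65 ± 0.32 (-0.02 to 1.31), adjusted p = 0.94, 0.659 and 0.678. At 24 and 48 h these were 0.44 and 0.33 without the arrays that stand apart. The 72 h value does not use those arrays except through the shared spread. In a fit on the 4 compared groups alone its error was 0.14 in place of 0.32 and it was called (adjusted p = 0.029; 0.029 to 0.942 over 43 alternative settings), the only one of these settings in which a member's interaction was. The saline groups enter this difference: Bak1 stood lower in miR-155-/- than in wild type saline kidney (-0.26) with no overlap of the arrays (adjusted p = 1).

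Genes with the most similar profile over the 8 group means were found by the root-mean-square difference of centred log2 levels, among all named genes tested. For Bax they were Zfp385a (0.09), Rhod (0.09) and Rundc3a (0.09), for a range of 1.83 in Bax itself. Bbc3, with a range of 3.65, had no equally close neighbour: Trp53inp1, a p53 target on a list used below, was nearest (0.20), and Eps8l3 was also near (0.23). Pmaip1 was closest to Enc1 (0.10), Rcan1 (0.15) and Srxn1 (0.15), Bak1 to Rac1 (0.07), Slc17a9 (0.10) and Wdr1 (0.10), and Bcl2l11 to Dyrk3 (0.08), Ltb4r1 (0.09) and 4930429B21Rik (0.10). Among the pro-survival genes Bcl2l1 was closest to Il17rc (0.08), Ddn (0.10) and Tspan4 (0.10), Mcl1 to Rpl18 (0.04), Hif1a (0.04) and Prss53 (0.04), and Bcl2 to Gemin5 (0.04), Zbtb3 (0.05) and Zfp267 (0.05). Bid was closest to Apba3 (0.05), Tmem184a (0.05) and Nlrx1 (0.06), and Bmf to Tmem248 (0.04), Btnl2 (0.05) and Zdhhc20 (0.06). The smaller values go with genes of small range, such as Bcl2 (0.36), Bmf (0.67) and Mcl1 (0.71). Within the family, the nearest pairs were Bcl2 and Bid (0.17), Bax and Bak1 (0.22) and Bcl2l1 and Mcl1 (0.22).

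Of 15 further family genes 12 were tested. Those called were 2 higher and 2 lower at 24 h, 1 higher and 3 lower at 48 h and 2 higher and 2 lower at 72 h in wild type, and 4 higher and 2 lower, 2 higher and 2 lower and 5 higher and 2 lower in miR-155-/- kidney. The share called in either direction was 33.3% at each time in wild type, against 38.7%, 23.8% and 25.3% of all genes, and 50%, 33.3% and 58.3% in miR-155-/- kidney, against 49.1%, 43.8% and 35.2%. At 24 h the shares were thus near or below that of all genes. The median log2 difference of the 12 lay between -0.10 and 0.22. These counts were the same at 24 and 48 h in miR-155-/- kidney without both arrays that stand apart. In that setting 3 in place of 2 were called lower at 24 h in wild type and at 72 h in miR-155-/- kidney. The shares of all genes above are not those of that setting. Bcl2l2, the pro-survival gene of BCL-W, fell at 24 h in wild type (-0.45 ± 0.08, adjusted p = 0.000109), and so did Bcl2l13 (-0.61 ± 0.14, adjusted p = 0.000708). Bcl2l15 rose at every time, most at 72 h in miR-155-/- kidney (9.69-fold, 3.28 ± 0.38, adjusted p = 9.12e-08, against 2.65-fold, 1.41 ± 0.38, adjusted p = 0.00599 in wild type). Its level at 72 h ranged from -3.76 to -3.14 in wild type and from -2.30 to -1.09 in miR-155-/- kidney, with no overlap. It was called higher in miR-155-/- than in wild type kidney at that time (1.79 ± 0.38, adjusted p = 0.0176). So was Bcl2a1d, a pro-survival gene known from leukocytes (1.37 ± 0.31, adjusted p = 0.0277), which in miR-155-/- kidney was 2.36-fold above saline (adjusted p = 0.00228). Of 6 neutrophil markers tested, 2 (S100a8 and S100a9) were called higher at all 3 times in miR-155-/- kidney and none in wild type. The sum of all 6 in miR-155-/- kidney was 5.17 to 5.55 in saline and 5.34 to 5.68 at 72 h, most of it from Csf3r (5.08 to 5.56 on these arrays). Without both arrays that stand apart, the median difference of the 6 from saline at 72 h was 0.07 in miR-155-/- kidney. In that setting 2 of the 6 were called lower than saline at 48 and 72 h in wild type. At 0 h 2 were then called lower in miR-155-/- than in wild type kidney. The part of neutrophil markers in the Bcl2a1d value was not tested.

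Downstream of the mitochondrion, 17 genes of the death pathway were tested. The calls were 6 higher and 3 lower, 5 higher and 1 lower and 5 higher and 1 lower at 24, 48 and 72 h in wild type, and 9 higher and 2 lower, 6 higher and 2 lower and 4 higher and 2 lower in miR-155-/- kidney. Several of these counts lie near the shares of all genes, such as 17.6% lower at 24 h in wild type (17.6% of all genes) and 23.5% higher at 72 h in miR-155-/- kidney (17.7%). The largest share was 52.9% higher at 24 h in miR-155-/- kidney (26.6% of all genes). Apaf1, the scaffold that cytochrome c assembles into the apoptosome, rose 3.35-fold at 24 h and 2.57-fold at 72 h in wild type (1.74 ± 0.22 and 1.36 ± 0.22, adjusted p = 3.09e-07 and 2.03e-05). Birc3, an inhibitor of apoptosis of the IAP family, rose at 48 and 72 h (1.21 ± 0.17 and 1.33 ± 0.17, adjusted p = 6.38e-06 and 1.36e-06). Aifm1, a flavoprotein of the mitochondrial intermembrane space, fell at 24 h (-0.74 ± 0.16, adjusted p = 0.000448). The calls in miR-155-/- kidney were 13 higher and 2 lower at 24 h and 7 higher and 2 lower at 48 h without both arrays that stand apart. Through the shared spread the other counts moved as well. They were then 10 higher and 3 lower, 7 higher and 3 lower and 6 higher and 3 lower in wild type. At 72 h in miR-155-/- kidney they were 5 higher and 6 lower. The shares of all genes above include both arrays and are not those of this setting.

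Of p53 and 15 of its target genes, all 16 rose at 24 h in wild type, 15 at 48 h and 14 at 72 h, and all 16 at each time in miR-155-/- kidney, with medians of 1.96 to 2.33. This list was chosen with results of these data known, and its genes belong with Bax, Bbc3 and Pmaip1 by background knowledge, so that the count is no independent support for them. Among 10 regulators of the members' transcription and turnover, the calls were 5 higher and 1 lower, 3 higher and 0 lower and 3 higher and 0 lower in wild type and 5 higher and 2 lower, 4 higher and 1 lower and 4 higher and 0 lower in miR-155-/- kidney. That is 60%, 30% and 30% called in wild type, against 38.7%, 23.8% and 25.3% of all genes, and 70%, 50% and 40% in miR-155-/- kidney, against 49.1%, 43.8% and 35.2%. Ddit3, the stress factor CHOP that can induce Bcl2l11, rose 3.54-fold at 24 h in wild type (1.82 ± 0.22, adjusted p = 2.51e-07). Fbxw7, part of a ubiquitin ligase for MCL1, rose 2.04-fold (1.03 ± 0.12, adjusted p = 1.5e-07), and so did Usp9x, which removes ubiquitin from MCL1 (0.87 ± 0.16, adjusted p = 9.05e-05). Without both arrays that stand apart, 1 in place of 2 of these regulators was called lower at 24 h in miR-155-/- kidney, and all 16 genes of the p53 list rose there at 24 and 48 h. In wild type 6, 4 and 4 of the regulators were then called higher at 24, 48 and 72 h. The shares of all genes above include both arrays and are not those of this setting.

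Markers of some cell types fell after cisplatin, as did many other genes. All genes called lower made up 17.6%, 11.6% and 12.8% at 24, 48 and 72 h in wild type. In miR-155-/- kidney they made up 22.5%, 21.1% and 17.5%. Counts of 0 or 1 of 5 markers below are too small to set apart from these shares. All 6 proximal tubule markers were called lower at 24 h in both genotypes, 3 at 48 h and at 72 h in wild type and 6 in miR-155-/- kidney. Their summed level was 8.33 to 8.41 in saline wild type kidney and 7.0 to 7.41, 7.03 to 7.80 and 7.55 to 7.76 at 24, 48 and 72 h, and 7.86 to 8.51, then 7.14 to 7.58, 6.75 to 7.47 and 6.94 to 7.46 in miR-155-/- kidney. Distal nephron markers were called lower for 6, 3 and 3 of 6 in wild type and 5, 5 and 4 of 6 in miR-155-/- kidney, with sums of 7.41 to 7.67 under saline and 5.11 to 6.03 at 24 h in wild type. Macrophage markers were called lower for 1, 2 and 3 of 5 in wild type and 1, 2 and 2 in miR-155-/- kidney, and red blood cell markers for 0, 4 and 4 of 4 and 0, 0 and 4. Without both arrays that stand apart the red blood cell counts in miR-155-/- kidney were 1 at 24 h and 4 at 48 h, and 5 proximal tubule markers were called lower there at 48 h. Counts in wild type moved too, through the shared spread. Macrophage markers were then called lower for 3, 4 and 5 of 5 in wild type, and proximal tubule markers for 5 of 6 at 48 h. More of all genes were called in that setting as well, such as 8753 in place of 5657 at 48 h in wild type. The shares of all genes above include both arrays and are not those of that setting. None of the marker genes of macrophages, lymphocytes or red blood cells was called higher in any of the 6 comparisons. Lymphocyte markers were called lower for 0, 0 and 1 of 5 in wild type and 1, 2 and 2 in miR-155-/- kidney. Endothelial markers were called lower for 1 of 5 at each time in wild type and for 3, 1 and 2 in miR-155-/- kidney (4 at 24 h without both arrays that stand apart), Emcn each time. Fibroblast markers were called lower for 3, 0 and 3 of 5 in wild type, with medians of -0.89, -0.82 and -1.28, and for 3, 0 and 0 in miR-155-/- kidney, with medians of -0.98, -0.21 and -0.13. Cidec of 4 adipocyte markers was called higher in all 6 comparisons. The part of these shifts in the levels of the members was not tested.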

How the data were processed

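Each of 32 arrays held the Cy3-labelled RNA of 1 animal. Slides were read with Agilent Feature Extraction 10.7.3.1, and its processed signal, a background-subtracted intensity on a linear scale, was deposited without scaling between arrays, per the file headers. The deposited value table holds the same intensity times 1 factor per array, with a 75th percentile of 999 to 1000, and served as an alternative. Here control spots and outlier flags were left out (59 to 976 spots an array), spots of a probe averaged, and the log2 of the deposited intensity taken minus the array's 75th percentile (1531 to 2647). Of 39429 probes, 27234 had a RefSeq symbol through their transcript (GRCm38.p6 table). The brightest probe stood for a gene, kept if well above background on all 4 arrays of any group and measured on at least 3 arrays of each, which left 23743 with 970 missing values. Means of the 8 groups were fitted to all arrays with limma 3.58.1 in R 4.3.3 (lmFit, eBayes with trend, 24 residual degrees of freedom), with 17 comparisons and Benjamini-Hochberg adjustment in each. The fit was tested on simulated data.

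The members and lists were chosen with earlier results of these data known. Named were all members, up to 4 called genes of smallest adjusted p per list and comparison, and the 3 nearest profiles of each member; a few genes that these rules select are not reported here. Alternatives were normexp (on the median signal, since a mean signal was not used here, offset 50), quantile or median scaling, no filter, the mean of a gene's probes, slide, scan day or replicate number as a block, the compared groups alone, each array left out, both arrays that stand apart left out, and the dimmer Mcl1 probe. Replicate numbers did not pair the animals. The closest arrays of any group correlated at 0.995 and none was a copy of another. Protein domains were not analysed here.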

Additional observations from a re-analysis of the deposited data

Results flagged for a closer look

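Each member was looked at in each group of 4 arrays for a single array far from the other 3, which gave 80 groups, of which chance would flag about 1 in 20. An array stood out in 4 of them. Mcl1 stood at 2.52 in wild type saline replicate 1, against 2.72 to 2.75 on the other 3 arrays. Bid stood at 0.96 on the same array, against 1.16 to 1.20. Bak1 stood at 2.46 in miR-155-/- replicate 3 at 48 h, against 1.06 to 1.20, and Pmaip1 at 3.68 on that array, against 1.77 to 2.06. This last array is the one with the highest red blood cell markers and the lowest tubule markers of its group, and the part of these in both values was not tested.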

How the results depend on the processing

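Every member's difference was recomputed under 43 alternatives in 17 comparisons, and none that was called changed direction. Of these values 7198 kept their side of the threshold, 75 lost a call and 37 gained one. The number of members called in the 6 cisplatin comparisons ranged from 6 to 9 over all alternatives. In the genotype comparisons it was 0 throughout, and in the interactions it was 0 except for 1 at 72 h with the compared groups alone. From 24 to 48 h in wild type it was 3, with 1 under normexp and 5 without both arrays that stand apart. From 24 to 48 h in miR-155-/- kidney it was 0, with 3 without those arrays. From 48 to 72 h in miR-155-/- kidney it was 2, with 0 under normexp, with no filter on dim probes, with the replicate block and with the compared groups alone, and 1 under quantile scaling, median scaling, the mean of a gene's probes and slide as a block. The causes were not tested.

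With each array left out in turn, the members called ranged from 7 to 8, 6 to 9 and 6 to 9 at 24, 48 and 72 h in wild type, and were 7 to 8, 7 and 8 in miR-155-/- kidney. They ranged from 2 to 4 between 24 and 48 h in wild type, from 0 to 3 between 24 and 48 h and from 0 to 3 between 48 and 72 h in miR-155-/- kidney, and were 0 in the others. The excess of pro-death over pro-survival change ranged from 1.01 to 1.21, 0.88 to 0.98 and 0.71 to 0.79 in wild type and from 1.14 to 1.30, 1.07 to 1.22 and 0.65 to 0.72 in miR-155-/- kidney. Under normexp it was 0.75 at 48 h and 0.58 at 72 h in wild type and 0.99 at 24 h and 0.57 at 72 h in miR-155-/- kidney. With the mean of a gene's probes it was 0.75 and 0.61 at 48 and 72 h in wild type and 0.95 and 0.54 at those times in miR-155-/- kidney, and under quantile scaling 0.73 at 72 h in miR-155-/- kidney. By the dimmer Mcl1 probe it was 0.69, 0.61 and 0.47 in wild type and 0.80, 0.80 and 0.41 in miR-155-/- kidney.

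Replicate numbers are shared between groups but give no pairing: over 112 pairs of same-numbered arrays the correlation of deviations ran from -0.55 to 0.59 (median 0.00), and 9 of 32 arrays correlated best with their own number. With the replicate block the members called were 7, 9 and 9 in wild type and 8, 7 and 8 in miR-155-/- kidney, with Bid added at 48 and 72 h in wild type (adjusted p = 0.0173 and 0.0225, limma).

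Under normexp, in the comparisons of cisplatin with saline, the calls among all genes fell by a larger share than those among the members. Between times this did not hold throughout. From 24 to 48 h in wild type normexp left 1 in place of 3 members and 1520 in place of 3110 genes. From 48 to 72 h in miR-155-/- kidney it left 0 in place of 2 members and 356 in place of 1483 genes. The values against saline were as follows. Normexp left 5228 in place of 9180 calls in wild type at 24 h, 2969 in place of 5657 at 48 h and 3031 in place of 6018 at 72 h, and in miR-155-/- kidney 7131 in place of 11663, 5170 in place of 10396 and 4772 in place of 8364. The compared groups alone gave 9736 calls in wild type at 72 h and 5806 at 48 h in miR-155-/- kidney, and 8753 at 48 h in wild type without both arrays that stand apart. Between genotypes at 72 h it was 171 genes, with 63 under normexp, 853 with the compared groups alone and 1077 without those arrays. For the interaction at 72 h it was 50, with 4, 672 and 391 in the same order. From 24 to 48 h in miR-155-/- kidney it was 955, with 2314, 5 and 4447. Of these 955 genes 50.2% rose, and 33.2% of those called under median scaling. At 0 h 77.8% of the 27 genes called between genotypes were higher in miR-155-/- kidney, and 61% of 41 under quantile scaling. All 12 probes of the members were well above background, so that signal set no bound on them.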
